A study of Mus musculus with 12 samples.

Results

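Goblet cells make and secrete the mucus that covers the colon. The 10 genes described here mark that cell: the transcription factors Atoh1 and Spdef, the mucus proteins Muc2, Tff3, Zg16, Fcgbp and Clca3, the antimicrobial protein Retnlb, the protease inhibitor family member Spink4, and the mucin folding enzyme Agr2. They were taken by symbol from a table of 21792 genes, all 10 were found, and all 10 were among the 21322 genes tested (mean value of at least 1 over the libraries). Clca3 is the older symbol of the gene that GENCODE names Clca1 (ENSMUSG00000028255; GRCm38 chromosome 3, 145003817 to 145032776, minus strand), also known as gob-5. Under that older naming the row called Clca1 is another member of the same family and was not counted here.

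Total RNA of colon tumours from FvB mice was sequenced in 12 libraries, 3 for each of 4 genotypes: wt, deficient for miR-34a in intestinal epithelial cells (IEC), deficient for p53 in those cells, and deficient for both, called double deficient below. All mice, the wt controls included, had received the carcinogen azoxymethane (10 mg/kg into the peritoneum, weekly for 6 weeks), and tumours were studied at week 16, counted from the first injection. The labels used here name neither the driver of the deletion in epithelial cells nor the age of the mice, and do not say whether the 3 libraries of a genotype came from separate animals. The p-values therefore measure the spread between these libraries, which may be in part technical. The comparisons address what each deletion, and both together, go with in these tumours.

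Intestinal stem cells choose between absorptive and secretory fates through Notch signalling. Cells with low Notch activity express Atoh1, the master regulator of the secretory lineage, and Spdef acts below it in the maturation of goblet cells. Mature goblet cells store Muc2, the gel-forming mucin, in granules. Tff3 is a trefoil peptide of mucosal repair, Zg16 a lectin that binds Gram-positive bacteria, Fcgbp a mucus protein rich in von Willebrand factor D domains, and Clca3 a secreted metalloprotease of mucus. Retnlb (RELMβ) is a colonic antimicrobial protein that cytokines of the type 2 response can induce. The tumour suppressor p53 activates transcription of miR-34a, a microRNA that pairs through its seed with sites in 3′ untranslated regions.

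The sequence below is that of one of the deleted genes, the mature miR-34a-5p (RefSeq, GRCm38.p6, chr4:150068473-150068494, plus strand), with its seed, bases 2 to 8, in capitals. Its full seed had no match in the longest annotated 3′ untranslated regions of the goblet cell genes. Under it stands the one shorter match found there, in Atoh1, with capitals for the stretch that pairs with bases 2 to 7 and the A that follows it; base 8 is left unpaired.
mmu-miR-34a-5p: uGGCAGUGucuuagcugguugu
Atoh1 site: ccttgaagaaactcaACTGCCAatgcag
The Atoh1 match is of the form ACTGCCA and starts at base 551 of the 867 bases of that region (GENCODE transcript Atoh1-201). The full seed match, CACTGCC, was found in 0 of the 10 regions and ACTGCCA in 1 of 10. Among 21022 genes with an annotated 3′ untranslated region, 15% held CACTGCC, 12.3% ACTGCCA and 20.7% either. The goblet regions are short, 93 bases in Spink4 to 882 in Clca3, and a match is a run of letters, not a measured site.

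RefSeq promoter entries matched 5 of the 10 genes (Muc2, Spdef, Fcgbp, Agr2 and Atoh1). The 250 bases before the start were searched on both strands for the E-box forms CAGCTG and CAGATG, which factors of the Atoh1 class can bind, for CCGGAT, a core that ETS factors such as Spdef can bind, and for TATAAA. The promoters of Muc2 (GRCm38.p6, chr7:141690090-141690339, plus strand) and Fcgbp (chr7:28070986-28071235, plus strand) are shown because they were the ones with a match, which is in capitals.
Muc2 promoter: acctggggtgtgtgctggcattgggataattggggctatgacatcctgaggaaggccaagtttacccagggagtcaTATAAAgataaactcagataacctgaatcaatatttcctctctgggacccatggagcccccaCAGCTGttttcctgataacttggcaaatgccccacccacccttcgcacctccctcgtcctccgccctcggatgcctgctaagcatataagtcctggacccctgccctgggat
Fcgbp promoter: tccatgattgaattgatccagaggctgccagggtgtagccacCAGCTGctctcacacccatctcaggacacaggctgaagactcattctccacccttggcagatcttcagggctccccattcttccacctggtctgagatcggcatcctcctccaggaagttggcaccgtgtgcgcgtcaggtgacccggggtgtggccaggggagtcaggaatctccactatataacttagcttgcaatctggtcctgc
The Muc2 promoter held CAGCTG at 112 bases and TATAAA at 174 bases before the start, and the Fcgbp promoter held CAGCTG at 208 bases. Of 32851 promoters of this length, 13% held CAGCTG, 14.4% CAGATG, 4.94% CCGGAT and 12.4% TATAAA.

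The deposited values are normalized and rounded to whole numbers, and the 12 columns were used without rescaling. Trp53, the gene of p53, had values of 3466 to 5120 in the 6 libraries that keep it and of 401 to 924 in the 6 deficient ones. The summed level of 15 epithelial genes was 868395 to 1144740 in wt, 756303 to 906558 in miR-34a deficient, 999105 to 1151615 in p53 deficient and 762471 to 855365 in double deficient libraries. Over 4 Y-linked genes, the mean log2 level reached 0.25 to 0.79 in the double deficient libraries and 2.77 to 6.98 in 7 others, and was 0 in the first wt and the first miR-34a deficient library. Xist, a transcript of female cells, made up 5.92%, 4.52% and 1.24% of the summed values in double deficient 1, 2 and 3. It made up 23.2% in wt 1, 52.8% in miR-34a deficient 1 and at most 0.234% in the 7 others. By these values the sexes were unevenly spread over the genotypes, and the part of sex was not separated from that of genotype. The libraries miR-34a deficient 1 and p53 deficient 1 carry another run code than the other 10. In the residuals around the genotype means of 9791 genes with a mean of at least 500, 1 of 8 directions of spread was nearly missing (singular value 0.179, the next 32.2). Double deficient 3 held 47.2% of that direction and double deficient 2 held 16.5%, so the spread of that genotype is understated most. The 4 genotypes share 1 estimate of spread, and its 8 residual degrees of freedom count that direction. The SEs and p-values of every comparison may therefore be too small.

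In double deficient tumours 2 of the goblet cell genes fell against wt, Retnlb and Clca3. Both are secreted products of mature goblet cells. Retnlb (ENSMUSG00000022650; GRCm38 chromosome 16, 48816856 to 48818892, plus strand) measured 5662, 4796 and 10451 in wt libraries 1, 2 and 3, against 12, 95 and 17 in the double deficient ones. Even the highest double deficient value lay far under the lowest wt value. It fell by 7.86 ± 0.96 on the log2(value + 1) scale (SE, n = 3 against 3), which is 233-fold (limma, adjusted p = 0.00394). Clca3 measured 49820, 39891 and 52572 in wt tumours against 1563, 6131 and 1342 in double deficient ones, again without overlap. It fell by 4.33 ± 0.74, or 20.1-fold (limma, adjusted p = 0.0265). These are whole-tumour measurements, in which fewer goblet cells and less RNA per goblet cell cannot be told apart.

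An adjusted p under 0.05, with Benjamini-Hochberg adjustment over all genes tested, was required for a change. In this comparison 0.802% of all genes met it, in either direction, against the 2 of 10 goblet cell genes. At an unadjusted p under 0.05, 7 of the 10 were lower, against 8.08% of all genes. For 9 of the 10 every double deficient library lay below every wt library, against 10.1% of all genes. The median log2 difference of the 10 was -3.0, and that of all genes 0.02. The Retnlb call held under all 26 alternative settings run (adjusted p from 0.00176 to 0.0281). Clca3 passed under 18 of 26 (adjusted p from 0.0076 to 0.141); it missed without double deficient 3 (0.141), without double deficient 1 (0.0936) and without any 1 of the wt libraries (0.0566 to 0.105), and with 3 other settings (0.0504 to 0.0574).

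**Figure D1:**
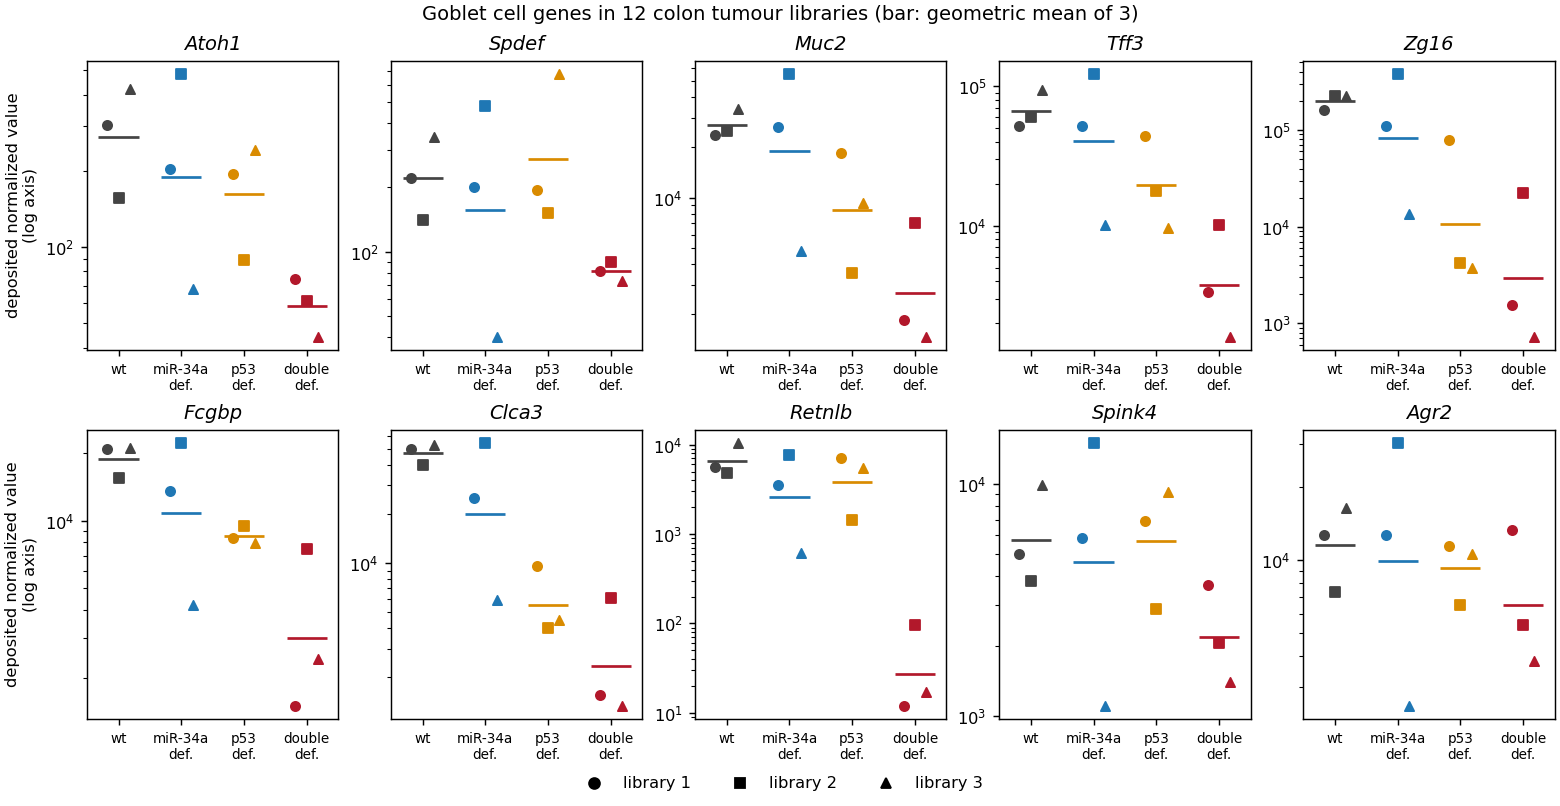
Deposited normalized values (log axis) of the 10 goblet cell genes in each of 12 tumour libraries, by genotype; marker shape gives the library number and the bar is the geometric mean of 3. Retnlb stands at 12 to 95 in double deficient tumours and at 621 or above in every other library, while Agr2 overlaps between all genotypes.

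The transcription factors were among the lower-valued genes. Whether the deposited values are already scaled for gene length is not known. Taken as not scaled, wt means per kilobase of merged exon were 138 for Atoh1 and 102 for Spdef. Those of Zg16 and Tff3 were 161757 and 138596, so the genes differ widely in level. Atoh1 (chromosome 6, 64729125 to 64731245) measured 303, 156 and 421 in wt tumours against 75, 61 and 44 in double deficient ones. The groups did not overlap, and the log2 difference of -2.19 ± 0.64 did not pass (limma, adjusted p = 0.144). Spdef (chromosome 17, 27714352 to 27728955) measured 222, 141 and 344 in wt tumours against 81, 90 and 73 in double deficient ones. These groups did not overlap either, and the log2 difference was -1.44 ± 0.79 (limma, adjusted p = 0.428; 95% interval from -3.16 to 0.29).

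The structural mucus genes lay lower in double deficient tumours without passing the test. Muc2 (chromosome 7, 141690340 to 141754693) measured 23791, 24974 and 33995 in wt tumours against 1850, 7074 and 1460 in double deficient ones. Its log2 difference was -3.35 ± 0.86 (limma, adjusted p = 0.105). All 3 double deficient libraries lay below wt, with library 2 the highest of them. Tff3 (chromosome 17, 31125306 to 31129646) measured 51698, 60077 and 93209 in wt tumours against 3356, 10112 and 1596 in double deficient ones, a log2 difference of -4.13 ± 0.88 (limma, adjusted p = 0.0592). Fcgbp (chromosome 7, 28071236 to 28120862) had values of 20810, 15404 and 20990 against 1505, 7512 and 2433, a log2 difference of -2.64 ± 0.60 (limma, adjusted p = 0.0746). For both genes the groups did not overlap. Zg16 (chromosome 7, 127050156 to 127087328) had the highest deposited value of the 10 genes in every wt library: 159419, 227526 and 223042. In double deficient tumours it had values of 1550, 22416 and 721, and its log2 difference was -6.10 ± 1.49 (limma, adjusted p = 0.0910). Without double deficient 2, the library with the highest value of its genotype for 7 of the 10 genes, Zg16 passed (adjusted p = 0.0419), as did Tff3 (0.0416) and Fcgbp (0.0237). Without miR-34a deficient 3, Muc2 (adjusted p = 0.0481), Tff3 (0.0270) and Fcgbp (0.0345) passed; that library takes no part in the contrast and enters through the shared estimate of spread. In each of these 2 fits 5 of the 10 genes passed.

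Agr2 and Spink4 had the smallest differences. Agr2 (chromosome 12, 35992907 to 36004087), a protein disulfide isomerase needed to fold Muc2, measured 12715, 7349 and 16295 in wt tumours against 13244, 5360 and 3843 in double deficient ones. Its groups overlapped, because double deficient 1 lay above wt 1 and wt 2. The log2 difference was -0.83 ± 0.75 (limma, adjusted p = 0.657), with a 95% interval from -2.47 to 0.82. Spink4 (chromosome 4, 40920052 to 40931395) measured 5011, 3832 and 9850 in wt tumours against 3688, 2069 and 1400 in double deficient ones. These did not overlap, by a small margin, and the log2 difference was -1.38 ± 0.80 (limma, adjusted p = 0.456; 95% interval from -3.13 to 0.37).

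**Figure D2:**
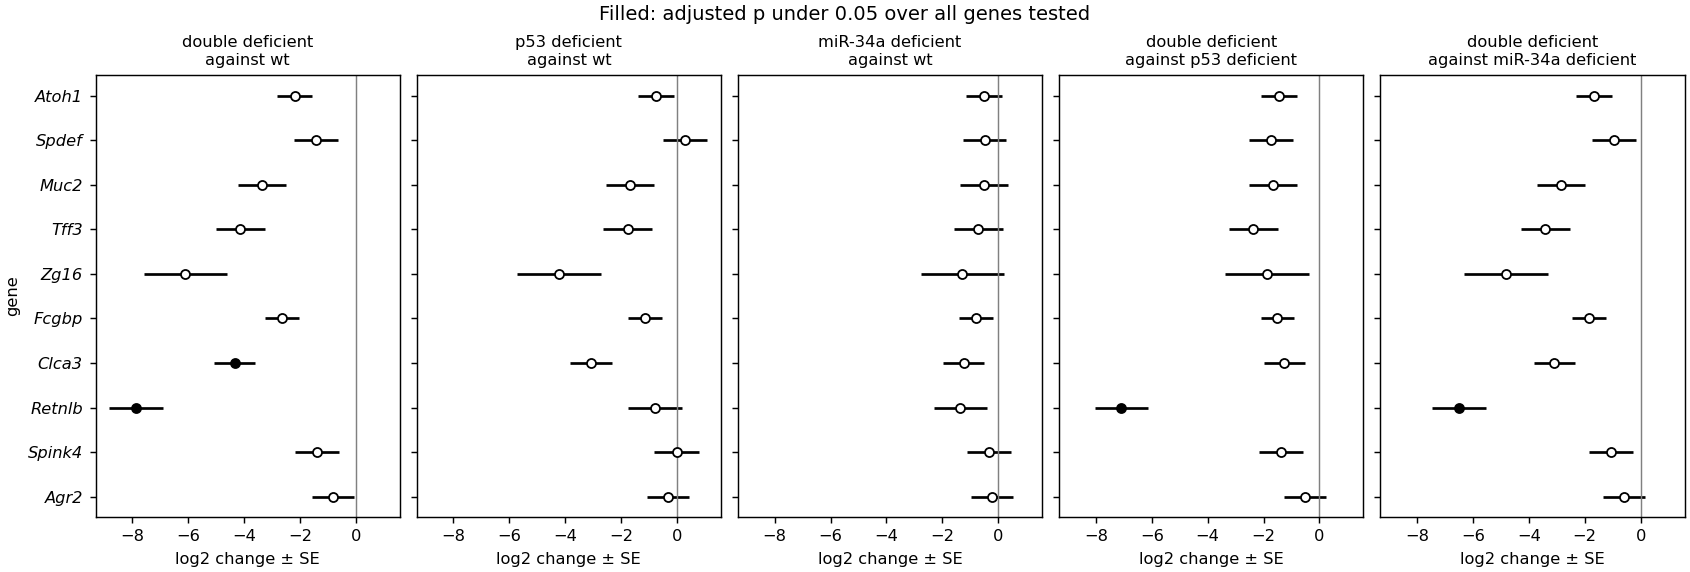
Log2 difference with its SE (from 3 libraries a genotype) for the 10 goblet cell genes in 5 comparisons; filled points have an adjusted p under 0.05 over all genes. In double deficient against wt the differences run from -7.86 for Retnlb to -0.83 for Agr2, and Retnlb is the filled point in both comparisons of double deficient with a single deletion.

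In p53 deficient tumours none of the 10 genes passed against wt. Clca3 and Zg16 had the largest differences, while Retnlb, Agr2, Spink4 and both transcription factors overlapped with wt; differences between genes were not tested. Clca3 had values of 9641, 4006 and 4483, all below the 3 wt values, with a log2 difference of -3.08 ± 0.74 (limma, adjusted p = 0.119). Zg16 had values of 78510, 4212 and 3704, also below wt throughout, with a log2 difference of -4.23 ± 1.49 (limma, adjusted p = 0.220). Retnlb had values of 7128, 1449 and 5455, which overlapped with wt. Its log2 difference was -0.78 ± 0.96 (limma, adjusted p = 0.737; 95% interval from -2.87 to 1.32).

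Muc2 (18459, 3544 and 9330), Tff3 (43890, 17764 and 9606) and Fcgbp (8358, 9478 and 7972) also lay below wt in every p53 deficient library. Their log2 differences were -1.68 ± 0.86, -1.76 ± 0.88 and -1.14 ± 0.60, and none passed. Atoh1 (195, 89 and 242), Spdef (195, 151 and 674), Agr2 (11388, 6523 and 10542) and Spink4 (6898, 2906 and 9252) overlapped with wt. Spdef in p53 deficient 3 was the highest of all 12 libraries. In all, 5 of the 10 genes lay lower without overlap, against 9.27% of all genes, and 2 were lower at an unadjusted p under 0.05, against 8.62%. Of all genes 0.0234% passed. The median log2 difference of the 10 was -0.96, and that of all genes -0.04.

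In miR-34a deficient tumours none of the 10 genes passed, and the libraries spread widely. Retnlb had values of 3548, 7650 and 621 in libraries 1, 2 and 3. Muc2 had values of 26453, 54800 and 4815, and Zg16 of 111090, 377985 and 13428. Library 2 had the highest value of its genotype and library 3 the lowest for 10 of 10 goblet cell genes. Against the mean of the other 2 libraries on the log2 scale, the 10 genes in miR-34a deficient 3 had differences of -3.93 to -2.03, and 10 of 10 were at or below -1, as were 7.18% of all genes in that library.

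Clca3 (25027, 54227 and 5905), Tff3 (52252, 121745 and 10180), Fcgbp (13580, 22159 and 4240) and Spink4 (5839, 15005 and 1109) had the same order. So had Spdef (200, 479 and 40), Atoh1 (204, 482 and 68) and Agr2 (12643, 30366 and 2500). Log2 differences from wt ran from -1.36 ± 0.96 for Retnlb to -0.22 ± 0.75 for Agr2, with a median of -0.62 against 0.03 over all genes. None of the 10 had an unadjusted p under 0.05 on the lower side (1.48% of all genes had) and none lay lower without overlap (3.57%), and 0.0375% of all genes passed. Without miR-34a deficient 3 the log2 differences of 7 of the genes turned positive, among them Agr2 (0.77), Muc2 (0.48) and Atoh1 (0.21).

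**Figure D3:**
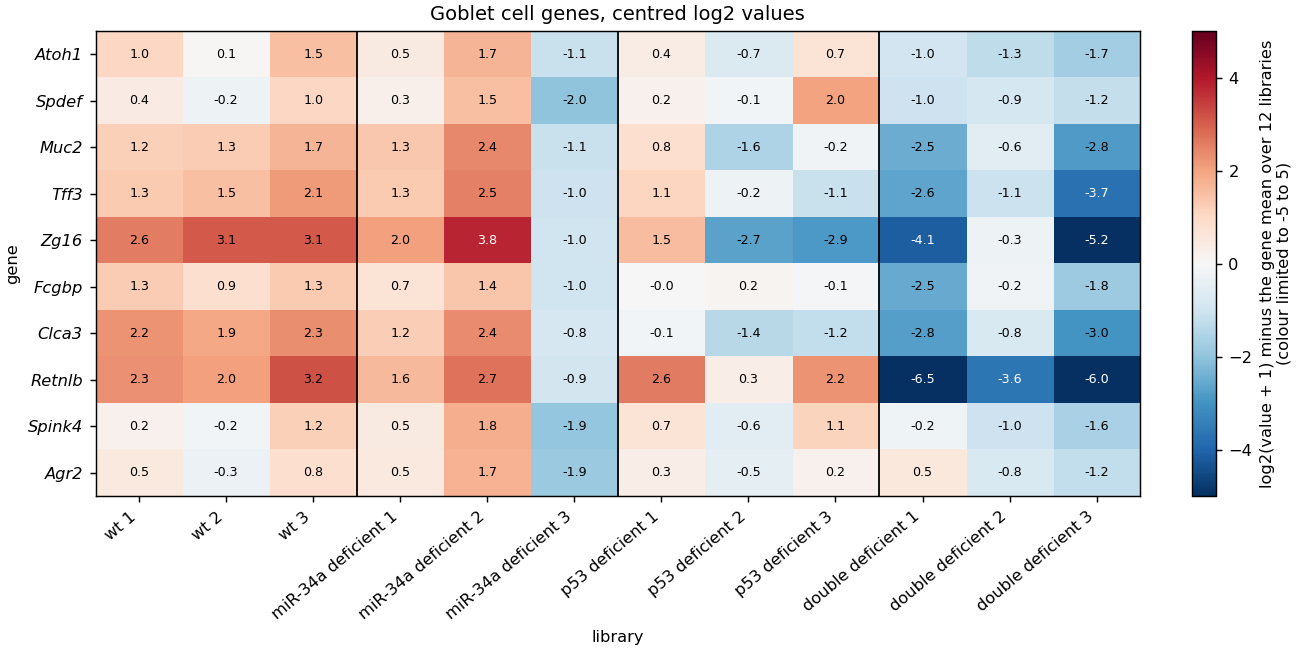
Log2(value + 1) of each goblet cell gene minus its mean over the 12 libraries, one row per gene and one column per library, with lines between genotypes. All 10 genes are negative in miR-34a deficient 3 and positive in miR-34a deficient 2, and Retnlb is positive in the 3 p53 deficient libraries and between -6.5 and -3.6 in the double deficient ones.

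Against each single deletion, Retnlb was the one goblet cell gene that fell in double deficient tumours. It fell by 7.09 ± 0.96 against p53 deficient tumours (limma, adjusted p = 0.00854), a 136-fold difference, and it fell by 6.51 ± 0.96 when compared with miR-34a deficient tumours (limma, adjusted p = 0.0138), a 90.9-fold difference. The highest double deficient value, 95, stood below the lowest value of either single deletion, 1449 and 621. Against p53 deficient tumours the call was lost once Y-linked level was a covariate (adjusted p = 0.170), with only the 2 genotypes in the fit (0.0632) and without double deficient 3 (0.0538). The Y-linked level separates these 2 genotypes completely, so that level and the genotype cannot be told apart. Against miR-34a deficient tumours it was lost without miR-34a deficient 2 (0.0620), without double deficient 3 (0.0794), without both libraries that carry another run code (0.0586) and with only the 2 genotypes in the fit (0.0553).

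The other genes showed smaller differences from p53 deficient tumours. The double deficient libraries lay below every p53 deficient one for Retnlb, Spdef, Fcgbp and Atoh1, against 8.89% of all genes. Log2 differences were -1.73 ± 0.79 for Spdef, -1.51 ± 0.60 for Fcgbp and -1.45 ± 0.64 for Atoh1, none past the adjusted threshold. Those of Clca3 (-1.25 ± 0.74) and Zg16 (-1.87 ± 1.49), the genes with the largest differences between p53 deficient and wt tumours, did not pass either (limma, adjusted p = 0.452 and 0.585). In all 5 of the 10 were lower at an unadjusted p under 0.05 (7.08% of all genes), and 0.605% of all genes passed.

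Against miR-34a deficient tumours 7 of the 10 were lower at an unadjusted p under 0.05 (10.6% of all genes). Retnlb and Tff3 lay lower without overlap (14.3% of all genes). For the other 8 genes miR-34a deficient 3 lay below the highest double deficient value. For Spdef (40), Agr2 (2500) and Spink4 (1109) that library lay below every double deficient value. For Agr2, double deficient 1 (13244) also lay above miR-34a deficient 1 (12643). Tff3 had a log2 difference of -3.41 ± 0.88 (limma, adjusted p = 0.0880) and Clca3 one of -3.09 ± 0.74 (adjusted p = 0.0732). Of all genes 0.905% passed. The comparisons with wt and with the single deletions share the double deficient libraries.

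Whether the difference under both deletions departs from the sum of the single ones was tested as an interaction. None of the 10 genes passed, as did 0.0234% of all genes. Retnlb came to -5.73 ± 1.35, with an unadjusted p of 0.0013 in limma and an adjusted p = 0.336. It was the only one of the 10 with an unadjusted p under 0.05 on the lower side (4.63% of all genes). For Clca3 the term was -0.02 ± 1.05 and for Zg16 -0.59 ± 2.11, both far smaller than their error. The median of the 10 was -0.99, and that of all genes 0.01.

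The make-up of the goblet transcripts also differed between libraries. Zg16 made up 48.4%, 59.2% and 48.4% of the summed deposited value of the 10 genes in wt libraries. No length correction was applied to that sum here. It made up 44.3%, 55.2% and 31.3% in miR-34a deficient libraries. In p53 deficient libraries it was 42.5%, 8.40% and 6.05%, and in double deficient libraries 5.76%, 36.8% and 5.58%. The share was thus below 9% in 4 libraries of p53 deficient or double deficient tumours, and above 31% in p53 deficient 1, double deficient 2 and the 6 libraries that keep p53. The same 2 exceptional libraries had the highest values of Pyy, the gut hormone peptide YY of enteroendocrine cells, at 404200 and 398111 against 4624 to 165883 in the other 10. The list of 15 enteroendocrine markers did not follow Pyy. Its mean centred log2 level was 0.67 in p53 deficient 1 and -0.02 in double deficient 2, against 1.18 in miR-34a deficient 2 and 0.70 in wt 3.

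A list of 30 other goblet cell products and markers had a median log2 difference of -0.75 between double deficient and wt tumours. Of these 30, 3 fell and 27 did not pass, where 0.802% of all genes passed. At an unadjusted p under 0.05, 13 of the 30 were lower, against 8.08% of all genes. Clca6, a relative of Clca3, measured 17187, 30178 and 18366 in wt tumours against 370, 4403 and 926 in double deficient ones, and fell by 4.21 ± 0.71 (limma, adjusted p = 0.0258). The listed symbols Clca6 and Clca4 were taken as they stand. Whether under the older naming they are genes of goblet cells was not checked, so the Clca6 calls may not concern that cell. Guca2a, the precursor of guanylin, which regulates fluid secretion, went from 1639, 1113 and 2543 to 131, 296 and 192 and fell by 3.09 ± 0.57 (limma, adjusted p = 0.0350). Fer1l6, a ferlin family gene, went from 2241, 3939 and 4304 to 96, 317 and 38 and fell by 4.98 ± 1.00 (limma, adjusted p = 0.0485). None of these 3 groups overlapped. Clca6 passed under 17, Guca2a under 14 and Fer1l6 under 11 of 26 alternatives. The count of 3 became 8 without miR-34a deficient 3, 0 without wt 1, wt 3, double deficient 1 or double deficient 3, and 1 without wt 2 or miR-34a deficient 1. It was also 0 with the Y-linked covariate, with the nearly missing direction as a covariate and without both libraries that carry another run code. It was 1 with no filter on low values, with no trend in the prior variance, with a covariate for run code and with a replicate block. Against miR-34a deficient tumours Clca6 (-3.48 ± 0.71, adjusted p = 0.0492) and the transmembrane serine protease gene Tpsg1 (-2.82 ± 0.54, adjusted p = 0.0375) fell, and passed under 6 and 11 of 26 alternatives (0.905% of all genes passed). Against p53 deficient tumours Wfdc2, a secreted protease inhibitor, fell by 1.23 ± 0.20 (adjusted p = 0.0237) and passed under 17 (0.605% of all genes passed).

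Of 17 regulators of the secretory lineage, none passed against wt, with a median of -0.36 and 3 lower at an unadjusted p under 0.05 (8.08% of all genes). The list includes Hes1, which represses Atoh1, so its median has no single direction to be read. Some genes, Hes1 and Galnt12 among them, are counted in several lists. Foxa2, a forkhead factor of the gut epithelium that acts in goblet cells, measured 3418, 4679 and 4844 in wt tumours, 4455, 5864 and 9372 without miR-34a, 3612, 1782 and 2505 without p53, and 1896, 1714 and 1645 without both. Its double deficient values lay below all wt and all miR-34a deficient ones. It fell by 1.84 ± 0.29 against miR-34a deficient tumours (limma, adjusted p = 0.0182), and was at -1.29 ± 0.29 against wt (adjusted p = 0.0741). The first call held under 23 of 26 alternatives and was lost without miR-34a deficient 2, without double deficient 3 and with the Y-linked covariate. In miR-34a deficient 3, the library with low goblet genes, Foxa2 was the highest of the 12. Klf4, a zinc finger factor of goblet cell differentiation, measured 6275, 5411 and 7197 in wt tumours against 1168, 3949 and 2349 in double deficient ones, at -1.50 ± 0.43 (limma, adjusted p = 0.135). In p53 deficient tumours it stood at 6081, 8836 and 11251, and the log2 difference between double and p53 deficient tumours was -1.93 ± 0.43 (adjusted p = 0.0777).

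Of 16 Notch pathway genes tested none passed against wt, and their median was 0.01. The ligand gene Dll1, which secretory progenitors present to their neighbours, was at -1.36 ± 0.38 (limma, adjusted p = 0.130), the receptor Notch2 at 0.53 ± 0.23 and the target Hes1, the repressor of Atoh1, at -0.31 ± 0.15. Hey2 was listed at 0 in every library.

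Of 28 genes for mucin O-glycosylation 1 fell against wt (0.802% of all genes passed), with a list median of -0.23 and 6 lower at an unadjusted p under 0.05 (8.08% of all genes). B3gnt7, an N-acetylglucosaminyltransferase, measured 5879, 5619 and 7138 in wt tumours against 802, 2237 and 782 in double deficient ones, without overlap. It fell by 2.46 ± 0.50 (limma, adjusted p = 0.0496; past the threshold under 7 of 26 alternatives), and it fell by 2.65 ± 0.50 when set against miR-34a deficiency (adjusted p = 0.0371; under 13 of 26). Gcnt3, a core-branching enzyme of mucin glycans, was at -1.94 ± 0.52 (adjusted p = 0.117) and Galnt12, an enzyme that starts these glycans, at -0.69 ± 0.21 (adjusted p = 0.157).

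The general secretory machinery differed less. Of 26 genes for endoplasmic reticulum folding and granules none passed against wt, with a median of -0.18 and 2 lower at an unadjusted p under 0.05, a share near the 8.08% of all genes. The smallest p belonged to Mlph, melanophilin, an adaptor of granule transport, at -0.77 ± 0.19 (limma, adjusted p = 0.0932). The folding enzyme Pdia6 was at -0.51 ± 0.22 and Rab27a, a GTPase of granule release, at -0.91 ± 0.43. Among 12 tested genes of the type 2 cytokine and IL-22 axis none passed, with a median of 0.19. The receptor Il22ra1 was at -1.19 ± 0.35 (adjusted p = 0.143), Il10rb at -0.42 ± 0.14 and Stat3 at 0.33 ± 0.13. Il22 was listed at 0 in every library, and Il13 had values of 0 to 8 outside double deficient tumours and of 20, 1 and 5 in them, too low to order the libraries. None of the genes of these 6 lists passed in single deficient against wt tumours or in the interaction.

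**Figure D4:**
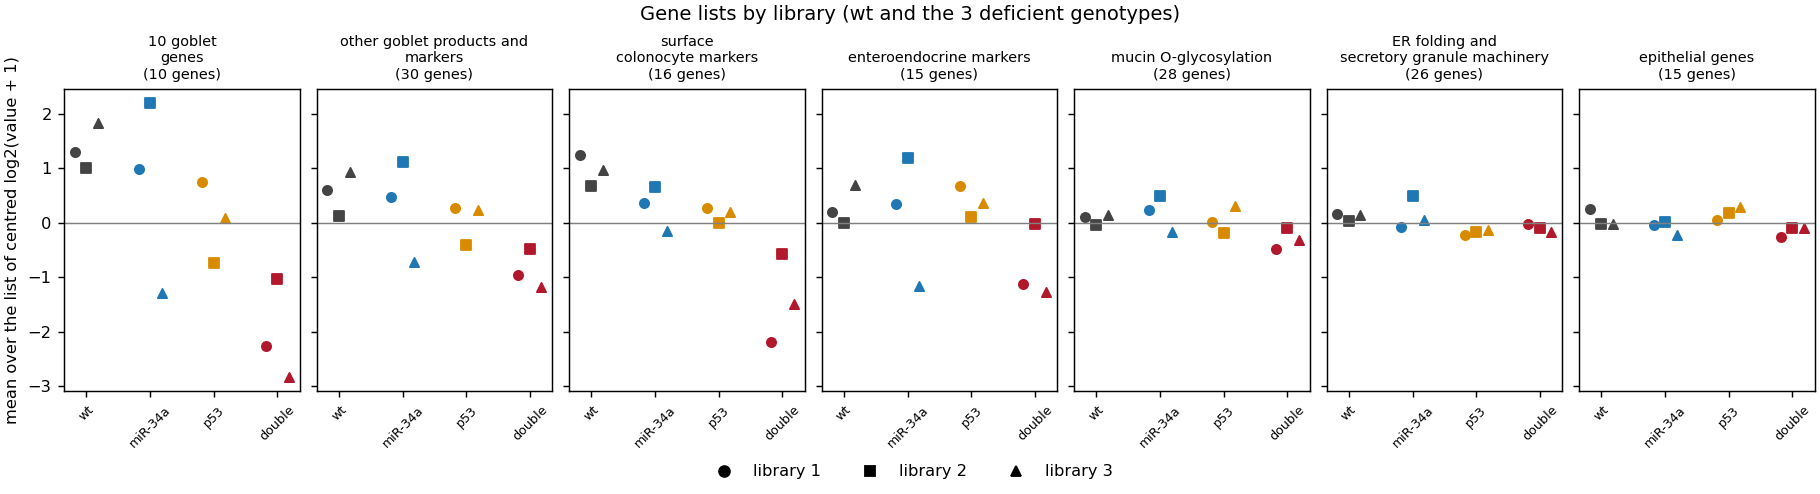
Mean over each gene list of log2(value + 1) centred on the gene's own mean over 12 libraries; each point is a library, by genotype, with marker shape for its number. The 10 goblet cell genes run from 2.20 in miR-34a deficient 2 to -2.83 in double deficient 3. The list means of epithelial genes have a smaller range, from 0.28 in p53 deficient 3 to -0.25 in double deficient 1. They lie above 0 in every p53 deficient and below 0 in every double deficient library.

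Of 16 surface colonocyte markers 6 fell in double deficient against wt tumours (1 to 7 over the alternatives; 0.802% of all genes passed), with a median of -1.84. Their summed level was 151794 to 209359 in wt, 93021 to 137991 in miR-34a deficient, 113290 to 168955 in p53 deficient and 28751 to 103208 in double deficient libraries. Aqp8, a water channel of surface colonocytes, stood at 238 to 298 in wt and at 0, 10 and 1 in double deficient tumours. Of 15 enteroendocrine markers none passed and the median was -1.15. Pyy was the source of most of their summed level, except in p53 deficient 3 (10681 of 25784) and double deficient 1 (4624 of 10111). Of 11 tuft cell markers none passed, 6 lay above 0 and 5 below, and the median was 0.55. Of 11 Paneth and deep crypt secretory markers 1 fell, Pla2g2a, a secreted phospholipase (-4.54 ± 0.80, limma, adjusted p = 0.0319); 6 lay above 0 and 5 below, with a median of 0.13. In miR-34a deficient 3 the enteroendocrine sum was 9957, the lowest of its genotype, as was the colonocyte sum of 93021. Its immune marker sum of 3568 was the highest of its genotype, with 1063 from S100a9 and 634 from Cpa3. The mean centred log2 level of the immune markers was instead higher in miR-34a deficient 2 (0.61) than in miR-34a deficient 3 (0.50). Of 15 epithelial genes none passed, with a median of -0.20, and of 10 endothelial markers 2 rose, with a summed level of 1011 to 2232 in wt and 2201 to 4106 in double deficient libraries. The calls of Pla2g2a and of these 2 endothelial markers were not followed under the alternatives. The part of the cell make-up of the tumours in the goblet cell results was not tested.

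Likeness to the goblet profile was measured as the mean absolute log2 distance, over the 12 libraries, from the mean centred profile of the 10 genes. Klk1, a kallikrein protease gene, was closest at 0.263, against a median of 1.38 over 12692 other genes. Klk1 measured 5705, 3715 and 6817 in wt tumours, 4815, 13134 and 634 without miR-34a, 2576, 843 and 2198 without p53, and 315, 1186 and 274 without both. It was followed by Nxpe5 (0.405), Nov (0.408), Ces2e (0.410), Ahnak2 (0.428), Rep15 (0.434), Sult1c2 (0.435) and Guca2a (0.442). Klk1, Rep15 and Guca2a belong to the list of other goblet cell genes. Of the 10 genes themselves, which make the profile, Muc2 lay closest to it (0.255), and Zg16 (1.52) and Retnlb (1.66) lay farther from it than the median of other genes. The distance counts the size of differences as well as their direction. A gene with the same order of libraries but larger differences, or a flat gene, can therefore lie far from or near the profile. These distances share libraries and their scaling, and describe this set of tumours.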

How the data were processed

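RNA sequencing of colon tumours in 12 libraries was analysed. The authors deposited 1 table of normalized values rounded to whole numbers, treated as a score. The aligner, the counter and the scaling steps were not given in the sources used here. Per the submitters' processing notes the genome build was mm10. Per the labels' protocols, libraries followed standard Illumina procedures. With no counts, sequencing depth is unknown.

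Genes with a mean of at least 1 (21322 of 21792) were tested as log2(value + 1) with limma 3.58.1 (trend in the prior variance) in R 4.3.3, with 1 mean per genotype, 12 libraries, 8 residual degrees of freedom and Benjamini-Hochberg adjustment over all genes; ± is the SE. A fold change on this scale understates that of low genes. The 6 comparisons were run under 26 alternatives (25 for the interaction). The procedure was tested on simulated data. Genes named outside the 10 are those with the smallest p of a list (at most 3 a comparison), the 8 nearest the goblet profile and markers that bear on purity. Il13, Il22, Pyy and Hey2 were named after their values were seen. The 10 genes and all lists were chosen with earlier results of these data known. Exon lengths come from GENCODE M21.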

Additional observations from a re-analysis of the deposited data

How the results depend on the processing

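Of 60 pairs of a goblet cell gene and a comparison, 46 kept their direction under every alternative run, and 37 of 1550 values reversed. In double deficient against wt the count of 2 genes that passed became 1 with no trend in the prior variance, with the nearly missing direction as a covariate and without both libraries of the other run code, and 1 to 5 on leaving out 1 library. Against miR-34a deficient tumours the count of 1 became 0 without both libraries of the other run code and with only the groups compared, and 0 to 3 on leaving out 1 library (3 without miR-34a deficient 3). Against p53 deficient tumours it became 0 with the Y-linked covariate and with only the groups compared, and 0 to 1 on leaving out 1. The cause was not tested.

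The reversals concern differences that did not pass. On leaving out 1 library, log2 differences in miR-34a deficient against wt ran from -1.03 to 0.77 (Agr2), -1.17 to 0.71 (Spink4), -1.27 to 0.48 (Muc2), -1.52 to 0.27 (Tff3), -1.29 to 0.49 (Spdef), -2.38 to 0.0296 (Zg16) and -1.19 to 0.21 (Atoh1). In p53 deficient against wt they ran from -0.36 to 0.71 (Spdef) and -0.36 to 0.48 (Spink4). Spink4 was at 0.0236 with median-of-ratios factors, 0.0121 with upper-quartile scaling and 0.38 with the Y-linked covariate, and Agr2 at 0.30 with the last. Agr2 in double against miR-34a deficient tumours ran from -1.59 to 0.21. The interaction ran from -0.90 to 0.70 (Clca3), -1.28 to 0.53 (Agr2) and -2.06 to 0.85 (Zg16). With the run code as a covariate, or without its libraries, it was 0.54 (Clca3), 1.06 (Zg16) and 0.0463 (Agr2), and Clca3 was at 0.0163 with quantile normalization.

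Over all genes the 171 calls in double deficient against wt became 57 to 188 under other settings and 29 to 261 on leaving out 1 library. The 193 against miR-34a deficient tumours became 57 to 212 and 23 to 246, and the 129 against p53 deficient tumours 7 to 141 and 27 to 294. Of the small counts, 8 for miR-34a deficient against wt became 4 to 12, 5 for p53 deficient against wt 1 to 88 and 5 for the interaction 1 to 10.

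Libraries share replicate numbers, but most same-numbered ones did not deviate together. Of 18 such pairs 4 had a correlation above 0.1, with a range from -0.16 to 0.54, and 5 of 12 libraries were closest to their own number. With a replicate block the counts of goblet cell genes stayed at 2, 1 and 1 in the comparisons of double deficient with wt, miR-34a deficient and p53 deficient tumours, while over all genes the 171 calls became 102.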
